A study of Mus musculus with 34 samples.

Results

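Macrophage genes were described in hindlimb muscle and diaphragm of dystrophic and control mice, with and without L-arginine. The 7 genes were Lyz2, C1qb, Cd68, Cd53, Ccl6, Gpnmb and Lgals3bp, taken as every probe whose only annotated symbol was 1 of these names, out of 637 genes named in both tables of the series. They had 13 probes among the 1200 of the untreated table and 12 among the 1200 of the L-arginine table. The 34 arrays carried 2 colours and covered 2 strains, mdx, which the labels describe as X-linked muscular dystrophy, and BL10, aged 3, 5, 9 and 12 weeks. Hindlimb and diaphragm of each strain were measured in untreated mice, 18 arrays, and in L-arginine-treated mice, 16 arrays, which gave 8 groups. Each group held 1 array per age, except that untreated mdx muscle had 2 arrays at 12 weeks in each tissue, labelled Sample 1 and Sample 2. The sources used here give neither dose nor duration of the L-arginine treatment. No label says that arrays came from separate mice, so a p-value reflects the spread among arrays alone, which may be technical.

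The unit of every value decides what can be read from it. Channel 1 of each array was labelled as RNA of the same strain at 12 weeks and channel 2 as RNA of the strain at the named age, so a deposited value is a ratio to the strain's own 12-week RNA and no expression level. On a 12-week array both channels are thus labelled 12-week RNA of the strain, and alike RNAs would give equal channels. At 12 weeks the hindlimb log2 ratios of Lyz2 were 1.07 in treated mdx, -1.16 in treated BL10 and 0.20 in untreated BL10. In untreated mdx they were 1.82 for Sample 1 and 0.07 for Sample 2. Why some of these channels differed was not tested. A strain difference below is therefore a difference between ratios, and a gene that stood equally higher in both channels of the mdx arrays would show none. A shift in the 12-week RNA of a strain would move all ratios taken to that RNA together. The SE, interval and p-value of a strain difference come from the spread among arrays and do not include such a shift. Whether the 12-week RNA of the treated arrays was itself from treated animals is not labelled. On 1 treated BL10 hindlimb array, of 9 weeks, the labels of both channels read mdx. Its title decided its group, and the differences of the 7 genes in treated hindlimb are given with and without it. Each treatment has its own table and platform, so the treatment cannot be told apart from the table.

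Skeletal muscle without dystrophin has fragile fibres that break down and regenerate in repeated rounds, and mdx mice carry such a defect. Macrophages enter the injured muscle, engulf debris, release signals that drive regeneration, and can persist as the tissue scars. The genes fall into 4 roles: Lyz2 (lysozyme of myeloid cells) and C1qb (a chain of complement C1q) are secreted defence proteins, Cd68 and Gpnmb are glycoproteins of lysosomes and endosomes in phagocytes, Cd53 is a tetraspanin on the surface of white blood cells, and Ccl6 and Lgals3bp are secreted, the former a chemokine and the latter a galectin-binding glycoprotein. In whole muscle, fewer macrophages and less of an RNA per macrophage cannot be told apart.

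Lyz2 lies on chromosome 10 at 117277541 to 117282272 and C1qb on chromosome 4 at 136880126 to 136886200 in the RefSeq annotation of GRCm38.p6, both on the minus strand. Their promoters are shown because these 2 genes passed the test between strains, described below. Each line holds the 250 bases before the annotated start in RefSeq, 5′ to 3′ on the gene's strand, chr10:117282273-117282522 for Lyz2 and chr4:136886201-136886450 for C1qb, and capitals mark the letters GAGGAA, the core bound by the myeloid factor PU.1.
Lyz2: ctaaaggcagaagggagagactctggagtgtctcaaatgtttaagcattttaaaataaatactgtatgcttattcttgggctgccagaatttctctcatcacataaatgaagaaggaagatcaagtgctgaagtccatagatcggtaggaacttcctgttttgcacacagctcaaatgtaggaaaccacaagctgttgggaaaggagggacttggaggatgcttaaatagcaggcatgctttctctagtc
C1qb: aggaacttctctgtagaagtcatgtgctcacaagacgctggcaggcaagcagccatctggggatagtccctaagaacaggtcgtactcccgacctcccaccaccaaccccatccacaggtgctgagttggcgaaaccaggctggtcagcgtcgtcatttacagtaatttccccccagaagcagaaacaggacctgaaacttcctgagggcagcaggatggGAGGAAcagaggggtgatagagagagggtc
The letters GAGGAA were searched on both strands. They stood 30 bases before the start of C1qb, 225 bases before that of Cd68 and 39 bases before that of Cd53, while that of Lyz2 held none, and 3 of the 7 promoters held them, against 23.3% of all 32851 RefSeq promoters of this length. The AP-1 letters TGANTCA were found in 1 of 7, that of Cd68, at 149 and 24 bases before its start, against 6.75% of all promoters. The E-box letters CACGTG were in 0 of 7, against 6.02%. No promoter held letters of more than 1 of these motifs other than that of Cd68. A match describes the letters in this window only.

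Lyz2, the lysozyme by which tissue myeloid cells are often tracked, had its highest group means in L-arginine-treated mdx muscle. In treated mdx hindlimb the ratio was 3.05 at 3 weeks, 2.00 at 5 weeks, 3.07 at 9 weeks and 2.09 at 12 weeks, and in treated BL10 hindlimb, in the same order, 0.705, 0.888, 0.591 and 0.449. Every mdx array lay above 1 and every BL10 array below 1, so the groups did not overlap. The ratios of treated mdx diaphragm were 1.78, 2.69, 1.83 and 2.95 at the same ages and those of treated BL10 diaphragm 0.905, 1.52, 1.55 and 1.33, again without overlap. Among the genes with a value on the array, Lyz2 ranked 13 of 637 and 24 of 616 in treated mdx hindlimb at 3 and 9 weeks, and 4 of 635 in treated mdx diaphragm at 12 weeks. In treated BL10 hindlimb at 12 weeks it ranked 619 of 626.

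Without treatment the Lyz2 ratio exceeded 2 on the Sample 1 arrays only. In untreated mdx hindlimb it was 0.926, 1.27 and 1.43 at the ages up to 9 weeks, 3.54 for Sample 1 and 1.05 for Sample 2. In untreated BL10 hindlimb it was 0.577, 1.13, 0.973 and 1.15, the last from 1 of its 2 probes because the other had a deposited value below 0. In untreated mdx diaphragm it was 1.46, 0.785 and 0.832, then 3.47 for Sample 1 and 0.895 for Sample 2, and in untreated BL10 diaphragm 0.883, 0.869, 0.80 and 1.01. The Sample 1 arrays stood above all others of both untreated tissues, and the remaining mdx arrays overlapped those of BL10.

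Ordered by their mean log2 ratio, the 8 groups ran for Lyz2 from treated mdx hindlimb (1.32 ± 0.34, SD, n = 4) and treated mdx diaphragm (1.17 ± 0.38, n = 4) through untreated mdx hindlimb (0.53 ± 0.76, n = 5), treated BL10 diaphragm (0.38 ± 0.36, n = 4) and untreated mdx diaphragm (0.31 ± 0.90, n = 5) to untreated BL10 hindlimb (-0.11 ± 0.47, n = 4), untreated BL10 diaphragm (-0.17 ± 0.14, n = 4) and treated BL10 hindlimb (-0.65 ± 0.42, n = 4). The signs follow from reading the values as channel 2 over channel 1, which is likely and not settled by the sources. If the ratios of all arrays were turned, every sign would reverse with the same sizes and p-values. If those of only some arrays were turned, sizes and p-values would change as well. The lowest Pearson correlation between an mdx and a BL10 array was -0.408 in the untreated table, where 4 pairs were under -0.3, and -0.0980 in the other table. Untreated arrays of 1 strain correlated at -0.195 or above. Of the 7 steps between neighbouring Lyz2 groups, 1 was wider than both SDs, the last, of 0.47. For C1qb, Cd53, Ccl6, Gpnmb and Lgals3bp 0 of 7 steps were, and for Cd68 1 of 7.

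**Figure D1:**
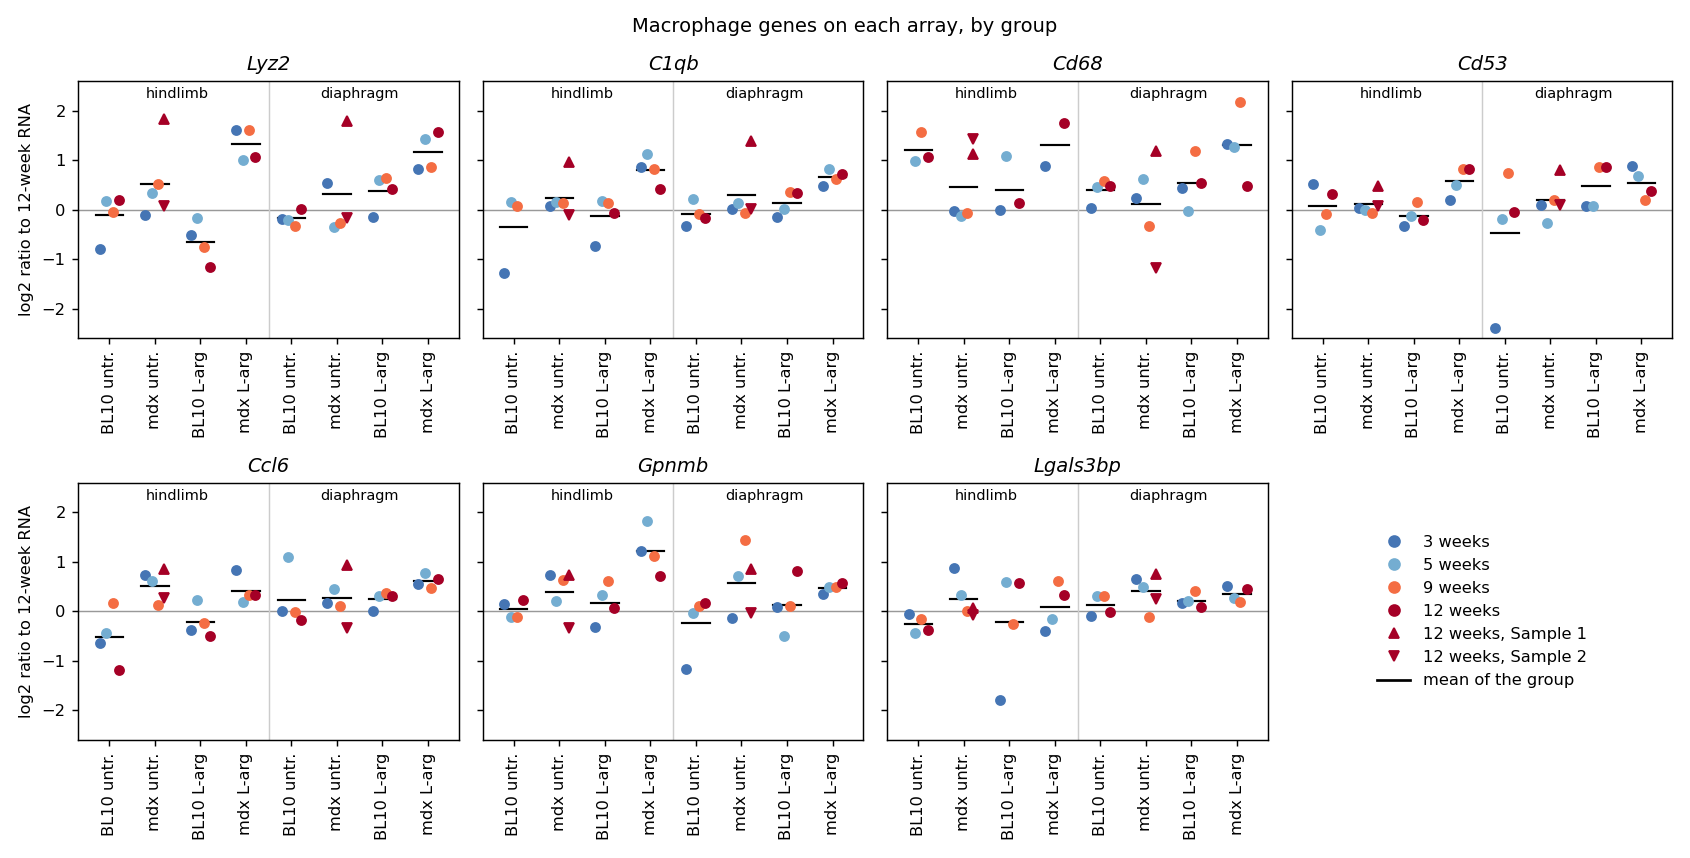
The log2 ratio to the strain's own 12-week RNA of each of the 7 genes (panels) on every array (points), by tissue, treatment and strain, with colour for age, triangles for Sample 1 and Sample 2 and a bar for the group mean. Lyz2 points of L-arginine mdx hindlimb lie between 1.00 and 1.62, above all BL10 hindlimb points of that table, which end at -0.17.

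C1qb encodes 1 of the 3 chains of C1q, which opens the classical complement pathway and is made mainly by macrophages. Its ratios in treated mdx hindlimb were 1.81, 2.19, 1.76 and 1.34 in order of age, and in treated BL10 hindlimb 0.597, 1.13, 1.09 and 0.955. In treated mdx diaphragm they were 1.40, 1.77, 1.54 and 1.64, and in treated BL10 diaphragm 0.904, 1.00, 1.28 and 1.26. All mdx arrays of both treated tissues lay above all BL10 arrays of the same tissue. Without treatment the mdx hindlimb ratios were 1.06, 1.11 and 1.09 up to 9 weeks, 1.96 for Sample 1 and 0.927 for Sample 2, and those of mdx diaphragm 1.01, 1.10, 0.957, 2.63 and 1.02 in that order. The untreated BL10 hindlimb gave 0.410, 1.11 and 1.06 and no value above 0 at 12 weeks, and BL10 diaphragm 0.798, 1.16, 0.939 and 0.895. As for Lyz2, Sample 1 was the highest array of both untreated tissues.

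Gpnmb, a glycoprotein of macrophages that have taken up debris or lipid, was highest in treated mdx hindlimb, at 2.34, 3.54, 2.17 and 1.63. The BL10 arrays of that tissue gave 0.807, 1.26, 1.53 and 1.04, all below the lowest mdx array. In treated diaphragm the mdx ratios of 1.28, 1.41, 1.41 and 1.49 overlapped BL10 ratios of 1.06, 0.704, 1.07 and 1.76. Only the last BL10 ratio reached above 1.28, and it rests on probe 361 with a deposited ratio of 9.44. Untreated mdx diaphragm reached 2.71 at 9 weeks, which rests on 1 of 4 Gpnmb probes with a deposited ratio of 73.78, while the other 3 gave 1.26, 1.10 and 0.53.

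Cd68, the lysosomal protein used to stain macrophages in tissue sections, was measured with gaps. In treated mdx hindlimb it was 1.84 at 3 weeks and 3.37 at 12 weeks, and the deposited values at 5 and 9 weeks were below 0, while BL10 gave 1.00, 2.12 and 1.10 and no value above 0 at 9 weeks. Treated mdx diaphragm gave 2.50, 2.41, 4.53 and 1.39, against 1.36, 0.98, 2.28 and 1.46 in BL10. Untreated hindlimb had 1.98, 2.95 and 2.08 in BL10 at 5, 9 and 12 weeks and 0.98, 0.91, 0.95, 2.17 and 2.69 in mdx, the last 2 being Sample 1 and Sample 2. The BL10 array at 3 weeks had a deposited value of -2.75 there and so no log2. Untreated diaphragm ran from 0.44 to 2.28 in mdx and from 1.03 to 1.49 in BL10. The strains overlapped in hindlimb and in diaphragm, treated and untreated.

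Cd53, which marks white blood cells in general, had treated hindlimb ratios of 1.15, 1.42, 1.78 and 1.76 in mdx and 0.80, 0.92, 1.11 and 0.87 in BL10. The groups did not overlap, but the lowest mdx and the highest BL10 array were close. The chemokine Ccl6 separated the strains in treated diaphragm, at 1.46, 1.72, 1.38 and 1.58 in mdx and 1.01, 1.24, 1.30 and 1.24 in BL10. In untreated hindlimb it was 1.66, 1.53 and 1.09 in mdx up to 9 weeks, 1.80 for Sample 1 and 1.2 for Sample 2, and 0.64, 0.74, 1.12 and 0.44 in BL10. Only the BL10 array at 9 weeks reached into the mdx range there. Lgals3bp stayed between 0.29 and 1.84 on all arrays, and in untreated hindlimb its mdx ratios of 1.84, 1.26, 1.01, 1.05 and 0.952 overlapped BL10 ratios of 0.958, 0.742, 0.897 and 0.766 only at the lower end.

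The strain comparison asks if the ratio to the strain's own 12-week RNA differed between mdx and BL10. In L-arginine-treated hindlimb Lyz2 was higher in mdx by 1.97 ± 0.28 (log2 difference ± SE), 3.92-fold, with a 95% confidence interval of 1.37 to 2.57 and a limma adjusted p of 0.00699. It was the only 1 of the 7 genes to pass, and 0.393% of the 1019 genes and unnamed probes tested passed (4, all higher in mdx). C1qb was higher by 0.93 ± 0.20 with an adjusted p of 0.0501. The other differences were 1.04 ± 0.30 for Gpnmb, 1.00 ± 0.44 for Cd68, 0.71 ± 0.24 for Cd53, 0.64 ± 0.20 for Ccl6 and 0.31 ± 0.39 for Lgals3bp, with adjusted p from 0.123 to 0.711. The mdx value was higher in 7 of 7 genes and in 58.3% of all tested, with a median difference of 0.93 against 0.08. An unadjusted p under 0.05 was found for 6 of 7 and for 17.4% of all tested. For 4 of 7, Lyz2, C1qb, Cd53 and Gpnmb, the lowest mdx array was above the highest BL10 array, which held for 3.74% of all tested.

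The Lyz2 difference in treated hindlimb kept its sign under all 30 alternatives and single probes, from 1.64 to 2.18, and passed under 26, with adjusted p from 0.00114 to 0.208. It did not pass with quantile normalisation (1.76, adjusted p 0.208), with array scaling (1.64, 0.176), without the 12-week arrays (1.89, 0.0934) or without the mdx hindlimb array of 9 weeks (1.85, 0.0512). C1qb passed without the mdx hindlimb array at 12 weeks (1.10, adjusted p 0.0434) and over only genes with a value on every array (0.93, 0.0346), and C1qb and Gpnmb did with the median of the probes (0.93 and 1.2, both 0.0498), C1qb within a range of 0.00624 to 0.974 over its alternatives. Cd68 passed once a running median over 51 neighbouring probes was removed (1.06, adjusted p 0.0367). The direction of Cd68 rests on the missing values: the lowest of its alternatives, with values of 0 or below set to the lowest positive ratio, was -0.77, within adjusted p of 0.0367 to 0.743.

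Without the BL10 hindlimb array whose channels name mdx, Lyz2 was again the only 1 of the 7 genes to pass in treated hindlimb, at 1.91 (adjusted p 0.0247). C1qb was then higher by 1.00 and Gpnmb by 1.2 (adjusted p 0.0856 and 0.136), Cd68 by 1.00, Cd53 by 0.77, Ccl6 by 0.64 and Lgals3bp by 0.24, with adjusted p from 0.196 to 0.834. The strains still did not overlap in 4 of 7 genes, Lyz2, C1qb, Cd53 and Gpnmb, against 5.62% of all tested with that array left out. Strain by tissue was then 1.11 for Lyz2 (adjusted p 0.548).

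In treated diaphragm 0 of 7 genes passed, and 0% of the 1019 features did in limma, where 27 had an unadjusted p under 0.05. Lyz2 was higher in mdx by 0.79 ± 0.28, C1qb by 0.53 ± 0.20 and Cd68 by 0.77 ± 0.33, each with an unadjusted p under 0.05 and an adjusted p of 0.998. All 7 differences were above 0, as were 50.8% of all tested, with a median of 0.36 against 0.0045 over all tested. Every mdx array exceeded every BL10 array in 3 of 7 genes, Lyz2, C1qb and Ccl6, against 3.73% of all tested. The difference between tissues, strain by tissue, was 1.18 ± 0.39 for Lyz2, larger in hindlimb, with an unadjusted p of 0.0110 and an adjusted p of 0.685. No gene passed that test (0% of 1019, 65 with an unadjusted p under 0.05).

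Averaged over both treated tissues, which uses the same arrays again, 2 of 7 genes passed where 1.47% of 1019 did (15, all higher in mdx). Lyz2 was higher by 1.38 ± 0.19, 2.61-fold, with a limma adjusted p of 0.00378, and C1qb by 0.73 ± 0.14, 1.66-fold, with 0.0277. Lyz2 passed without each of the 16 arrays in turn, with adjusted p from 0.00418 to 0.0163, but not with quantile normalisation (1.34, adjusted p 0.171), array scaling (1.26, 0.0620) or without the 12-week arrays (1.28, 0.0675). C1qb lost its call when any 1 of 10 arrays was left out, with adjusted p from 0.0517 to 0.0930. Those were all 4 mdx diaphragm arrays, the BL10 diaphragm arrays of 3, 5 and 9 weeks, the BL10 hindlimb array whose channels name mdx, and 2 mdx hindlimb arrays, of 5 and 9 weeks. Without the array named mdx in its channels, C1qb stood at 0.76 with 0.0517 and Lyz2 at 1.35 with 0.0163. C1qb also missed the threshold with quantile normalisation (0.61, adjusted p 0.171), array scaling (0.65, 0.0620), the print-order trend removed (0.63, 0.0529), no 12-week arrays (0.83, 0.117) and a variance prior with trend and robust set (0.73, 0.0555). Its probes tested alone gave both ends of the range of adjusted p, probe 314 with 1.41 (0.00346) and probe 923 with 0.05 (0.933). With each probe alone Gpnmb passed through probe 940 (1.2, adjusted p 0.0278, within 0.0278 to 0.801). Cd68 passed with the print-order trend removed (0.94, adjusted p 0.00962, within 0.00962 to 0.997).

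Untreated muscle gave no call among the 7 genes. In hindlimb Ccl6 was higher in mdx by 1.08 ± 0.33 (unadjusted p 0.00495, adjusted p 0.396) and Lgals3bp by 0.52 ± 0.24 (adjusted p 0.426), Lyz2 by 0.55 ± 0.42, C1qb by 0.46 ± 0.38, and Cd68 differed by -0.73 ± 0.50. The sign of Cd68 depends on the 3-week BL10 array, which has no log2: with values of 0 or below set to the lowest positive ratio it was 1.09, and its alternatives ran from -1.32 to 1.09 with adjusted p from 0.402 to 0.998. The C1qb difference was 0.04 when the 3-week BL10 array was left out. Tested alone in hindlimb, probes 1186 and 536 of Lgals3bp differed by 1.01 and 0.05, and probes 987 and 832 of C1qb by 0.93 and -0.02. Without the 3 untreated BL10 arrays that had over 100 values at or below 0, C1qb stood at 0.035, Lyz2 at 0.17 and Ccl6 at 0.69. Of all 1014 features 0.0986% passed, and the median difference was 0.46 over the 7 genes and 0.15 over all. In diaphragm 0% passed in limma, with an unadjusted p under 0.05 for 95, and Gpnmb differed most, by 0.81 ± 0.35 (adjusted p 0.465). Its probes alone differed by 2.33 (probe 698, which holds the ratio of 73.78), 0.60, 0.35 and -0.26. Cd68 differed by -0.34 ± 0.45 in diaphragm (adjusted p 0.866). Over both untreated tissues 0% passed, with 143 at an unadjusted p under 0.05, among them Ccl6 (0.57 ± 0.23), Gpnmb (0.58 ± 0.25) and Lgals3bp (0.41 ± 0.17), with adjusted p of 0.299 or more. Single probes there ran from -0.11 to 1.61 for Gpnmb and gave -0.03 and 0.70 for Lgals3bp. The test of strain by tissue called 0% (45 with an unadjusted p under 0.05).

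Non-overlap of the untreated strains held in 0 of 7 genes in hindlimb and 0 of 7 in diaphragm, where 2.76% and 2.66% of all tested had every mdx array above every BL10 array. Without both Sample 1 arrays the Lyz2 difference was 0.32 in hindlimb and 0.12 in diaphragm, against 0.55 and 0.40 with them. Array centring moved the median of all features by -0.12 in hindlimb and -0.11 in diaphragm, and with it 5 of 7 genes were above 0 in each tissue, against 5 and 6 without. Of all features tested, 63.2% in hindlimb and 67.5% in diaphragm were above 0 without centring.

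**Figure D2:**
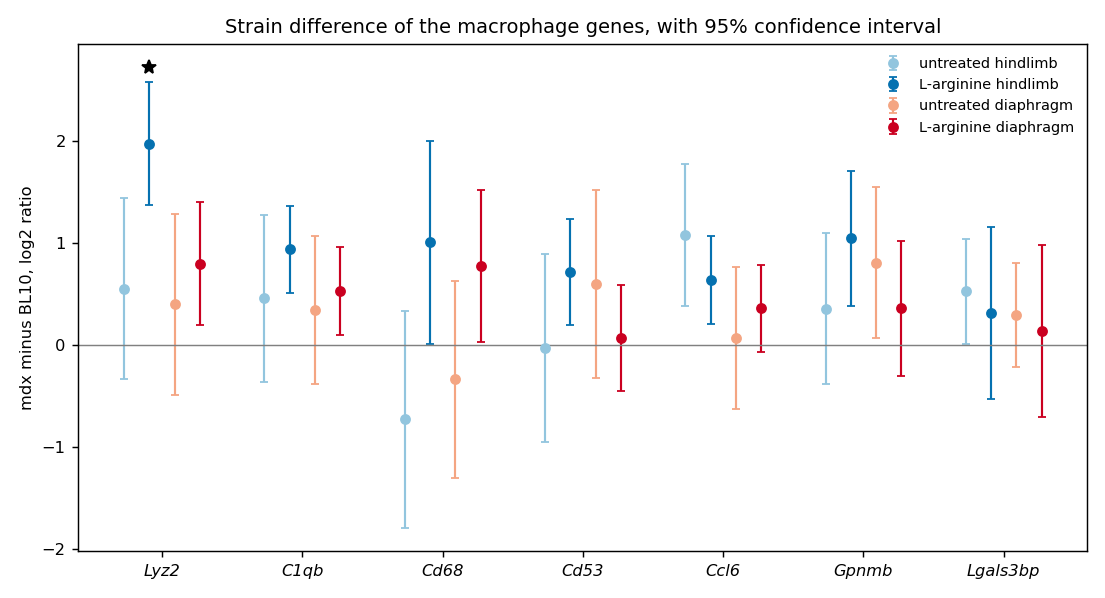
The mdx minus BL10 difference in log2 ratio (vertical axis) of the 7 genes in each tissue and treatment (colours), with points for the estimate and bars for its 95% confidence interval. The interval of Lyz2 in L-arginine hindlimb, 1.37 to 2.57, lies farthest from 0.

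Probes of 1 gene did not always give 1 answer, and for C1qb they parted. Tested each probe alone, 1.76% of 1192 probes passed in treated hindlimb, 0% in treated diaphragm and 1.93% over both. Both Lyz2 probes passed in hindlimb, numbered 756 (2.13 ± 0.32) and 910 (1.81 ± 0.27), each with an adjusted p of 0.00624, and their log2 ratios correlated at 0.930 over 16 treated arrays and at 0.861 for the 2 untreated probes over 17. A near-identical lysozyme gene, Lyz1, exists in mice, and the probes may not tell the copies apart.

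C1qb probe 314 gave 2.44, 2.85, 4.70 and 2.62 in treated mdx hindlimb in order of age and 0.43, 1.14, 1.19 and 0.76 in BL10, a difference of 1.90 ± 0.28 with an adjusted p of 0.00624. Probe 923 of the same gene gave 1.35, 1.69, 0.66 and 0.69 in mdx and 0.83, 1.13, 1.00 and 1.2 in BL10, a difference of -0.03 ± 0.27 with an adjusted p of 0.974. The gene's mean thus lies between a probe with a large difference and a probe with a difference near 0, and the 2 probes correlated at -0.0466 over 16 arrays. Of 4 Gpnmb probes in hindlimb, probe 940 passed (1.56 ± 0.35, adjusted p 0.0482), and probes 1062, 990 and 361 differed by 1.10, 0.70 and 0.41. Probe 361 had a ratio of 7.61 on the BL10 array whose channels name mdx. Without that array probe 361 differed by 1.29 and probe 940 lost its call (1.38, adjusted p 0.111), while C1qb probe 314 kept its own (1.99, 0.0174) and both Lyz2 probes theirs (2.13 and 1.68, both 0.0258). Pairs of Gpnmb probes correlated from -0.0462 to 0.759 over the treated and from -0.432 to 0.416 over the untreated arrays.

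**Figure D3:**
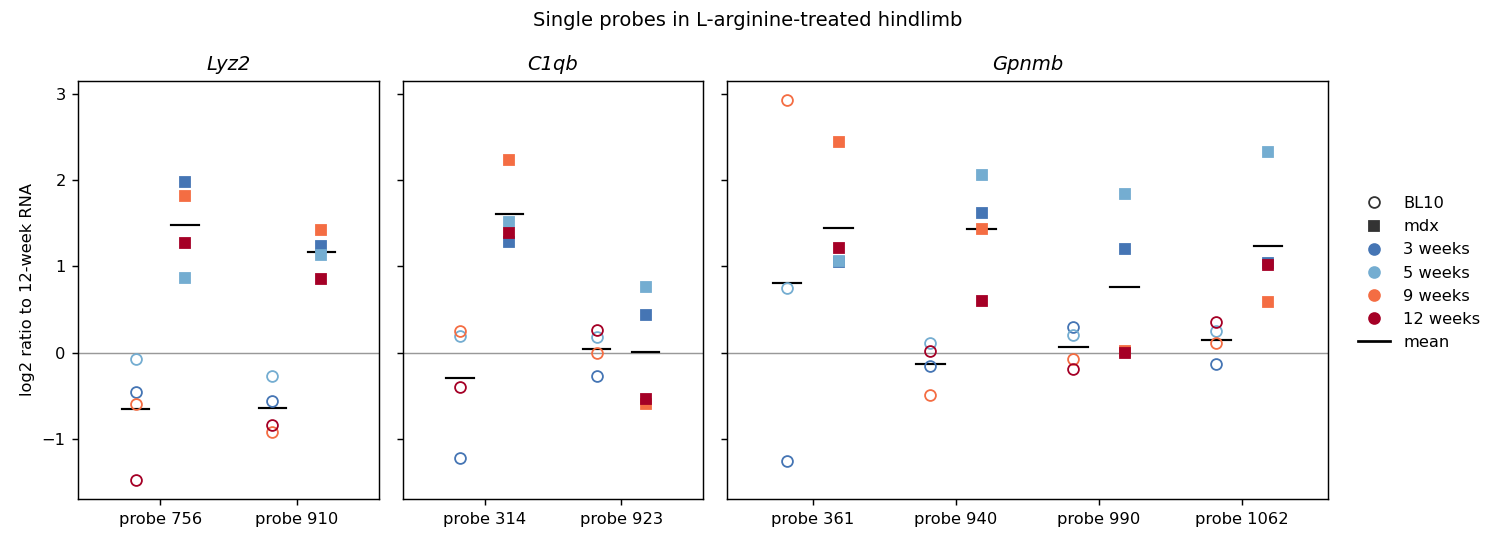
Log2 ratios to 12-week RNA of the single probes of Lyz2, C1qb and Gpnmb (panels) on the 8 L-arginine-treated hindlimb arrays, with open circles for BL10, squares for mdx, colour for age and bars for means. Both Lyz2 probes and C1qb probe 314 separate the strains, with differences of 2.13, 1.81 and 1.90, and C1qb probe 923 does not, at -0.03.

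Sample 1 and Sample 2 of untreated mdx muscle at 12 weeks carry the same strain, age and treatment, with 1 array each per tissue, so their difference has no replicate check. On Sample 1 Lyz2 was 3.37-fold higher than on Sample 2 in hindlimb and 3.88-fold in diaphragm, and C1qb 2.11-fold and 2.59-fold. Gpnmb was 2.10-fold and 1.87-fold higher, Ccl6 1.5-fold and 2.42-fold, Cd53 1.33-fold and 1.64-fold, and Lgals3bp 1.10-fold and 1.41-fold. Cd68 on Sample 1 was 0.807 of Sample 2 in hindlimb and 5.18-fold above it in diaphragm. More than 2-fold higher were 3 of 7 genes in hindlimb and 4 of 7 in diaphragm, against 8.77% and 9.89% of the 627 genes with a value on all 4 arrays. In both tissues at once it was 2 of 7, Lyz2 and C1qb, and 2.55% of all, 16 genes.

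**Figure D4:**
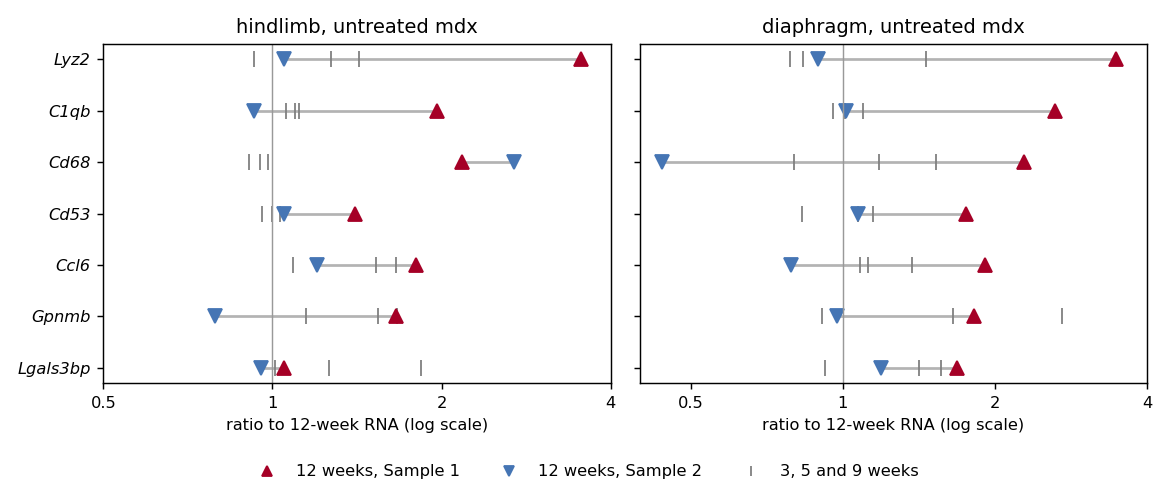
Ratios to 12-week RNA (log scale) of the 7 genes in untreated mdx hindlimb and diaphragm, with triangles for Sample 1 and Sample 2 at 12 weeks and ticks for 3, 5 and 9 weeks. Lyz2 reaches 3.54 and 3.47 on Sample 1 and 1.05 and 0.895 on Sample 2.

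All 7 genes lay above 0 on both Sample 1 arrays, and 6 of 7 stood in the highest 10% of genes on each. Their median log2 ratio was 0.85 in hindlimb and 0.93 in diaphragm, where the median of all genes was -0.01 and 0.14. On the Sample 2 arrays it was 0.07 and -0.04, with 1 and 0 of 7 in the highest 10%. The other 8 macrophage genes of the list below had a median of 0.05 and 0.28 on the Sample 1 arrays, against -0.04 and -0.11 on Sample 2. The 6 fibroblast and matrix genes had 0.43 and 1.07 on Sample 1, against 0.28 and 0.32 on Sample 2. The part of such cells in the difference was not tested.

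**Figure D5:**
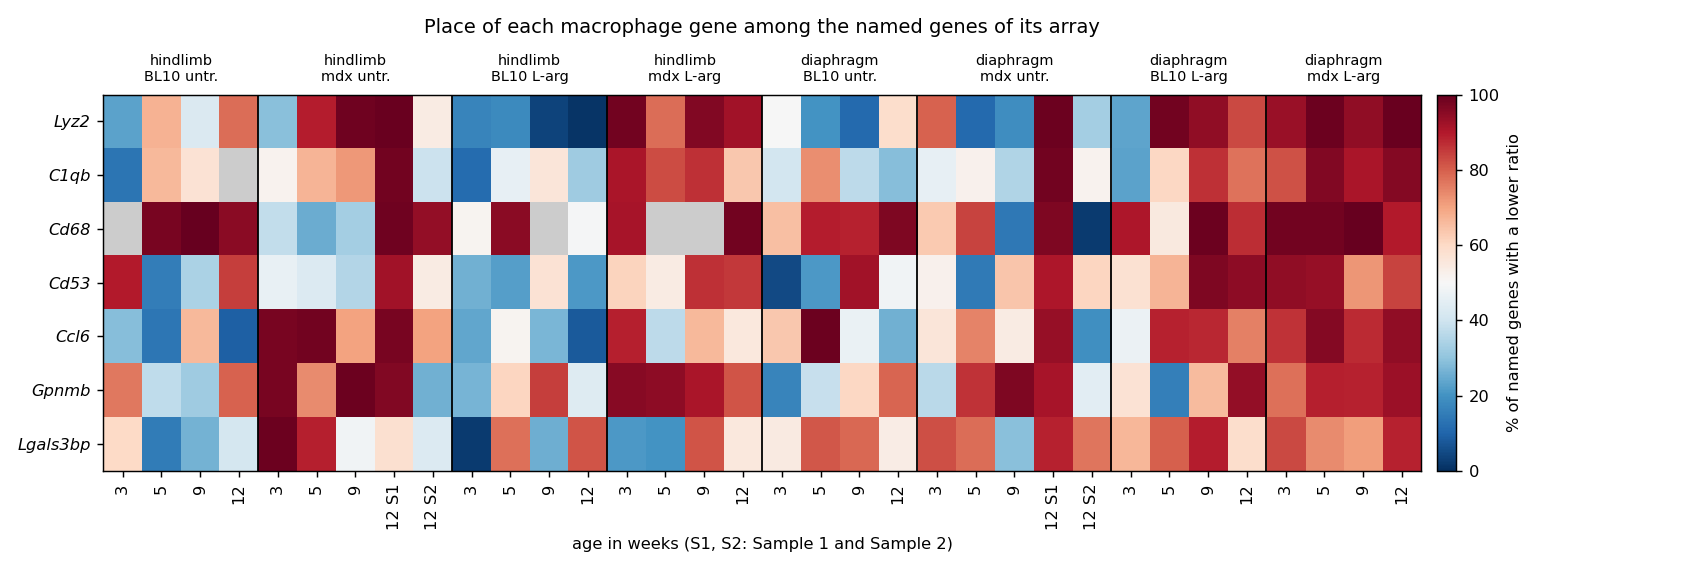
The share of named genes with a lower ratio (colour, in percent) for each of the 7 genes (lines) on each of the 34 arrays (columns, by group and age in weeks). On the Sample 1 arrays 6 of 7 genes lie in the highest 10%, and Lyz2 ranked 5 of 636 in hindlimb and 7 of 632 in diaphragm.

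Between tissues, the mdx ratios of the 7 genes did not differ past the threshold. In treated mdx muscle Gpnmb was higher in hindlimb than in diaphragm by 0.74 ± 0.30 (adjusted p 0.186), and Lyz2 by 0.15 ± 0.28, where 0.393% of 1019 passed. Of all tested, 65.6% were higher in hindlimb there, with a median difference of 0.20. In untreated mdx muscle 0% of 1014 passed in limma, where 42 had an unadjusted p under 0.05, none of the 7 genes among them. No age effect passed for any of the 7. The age test called 0% of all features in untreated muscle (47 with an unadjusted p under 0.05) and 0% under L-arginine (57), and the test of strain by age called 0.302% of 992 and 0% of 1016 (7 with an unadjusted p under 0.05). At matched ages the mdx ratio of Lyz2 exceeded that of BL10 at 4 of 4 ages in both treated tissues, by 1.17 to 2.37 in log2 in hindlimb and 0.23 to 1.15 in diaphragm, and so did that of C1qb, by 0.49 to 1.60 and 0.28 to 0.81. In untreated muscle, with Sample 1 and Sample 2 apart, Lyz2 did in 4 of 5 hindlimb and 3 of 5 diaphragm pairs. C1qb did there in 3 of 3 and 4 of 5. The share of all genes that did so was not computed.

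Comparing the treated with the untreated table, which shares its arrays with the strain comparisons, Lyz2 was higher in treated mdx hindlimb by 0.88 ± 0.37 (adjusted p 0.201) and in treated mdx diaphragm by 0.95 ± 0.37 (adjusted p 0.229). For Cd68 the differences were 1.26 ± 0.55 and 1.26 ± 0.42 (adjusted p 0.245 and 0.181). The former rests on the 2 of 4 treated arrays with a value and was -1.25 with values of 0 or below set to the lowest positive ratio, within adjusted p of 0.0820 to 0.895. In BL10 hindlimb Lyz2 was lower in the treated table, at -0.53 ± 0.38 (-0.47 without the array whose channels name mdx), and in BL10 diaphragm higher by 0.55 ± 0.38. None of the 7 genes passed in any of these, where 3.46% of 636 genes passed in mdx hindlimb, 0.629% in mdx diaphragm, 4.72% in BL10 hindlimb and 0% in BL10 diaphragm (48 with an unadjusted p under 0.05). Of all 636 genes, 69.0% were above 0 in mdx hindlimb (median 0.21) and 42.5% in mdx diaphragm (median -0.07). In BL10 hindlimb it was 71.5% (median 0.25) and in BL10 diaphragm 55.2% (median 0.05). The Lyz2 difference passed in both mdx tissues without the Sample 1 arrays, at 1.12 (adjusted p 0.0251) in hindlimb and 1.23 (0.0208) in diaphragm, within 0.0251 to 0.795 and 0.0208 to 0.862 over the alternatives. In diaphragm quantile normalisation and array scaling also called Lyz2 (1.59 and 1.37, adjusted p 0.0435 and 0.0475) and Cd68 (1.72 and 1.70, 0.0386 and 0.0260). The strain by table test, which asks if the strain difference itself differed, gave 1.42 ± 0.48 for Cd68 and 0.91 ± 0.38 for Lyz2, both with an adjusted p of 0.431, and called 0% (64 with an unadjusted p under 0.05). With values of 0 or below set to the lowest positive ratio, that of Cd68 was -0.34 (adjusted p 0.901, within 0.0887 to 0.901).

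Among themselves the 7 genes varied together in part, which is described over arrays that share tables and references. Lyz2 and C1qb correlated at 0.857 over 18 untreated and 0.797 over 16 treated arrays. Lyz2 and Ccl6 correlated at 0.894 over the treated and 0.430 over the untreated arrays, and C1qb and Gpnmb at 0.810 and 0.378. Lgals3bp correlated with Lyz2 at 0.250 and 0.218. The genes most like the mean of the 7 in both tables, by Pearson r among the highest 20 of each, were Lat2 (0.664 untreated, 0.660 treated), an adaptor protein of immune receptor signalling, and Marcks (0.659 and 0.811), an actin-linked substrate of protein kinase C, out of 414 and 568 genes with a value on every array. In treated hindlimb Lat2 was higher in mdx by 0.53 ± 0.16 (adjusted p 0.136) and Marcks by 0.67 ± 0.26 (adjusted p 0.227).

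Of a list of 60 other macrophage and phagocyte genes, 8 had a probe of that single name: Csf1, Mpeg1, Hmox1, Lamp1, Il1b, Tnf, Nos2 and Grn. In the strain comparisons 0 of 8 passed in any tissue or treatment. Few features passed at all: 0.393% in treated hindlimb, 0% in treated diaphragm, 0.0986% in untreated hindlimb and 0% in untreated diaphragm. Over both tissues it was 1.47% treated and 0% untreated. A count of 0 of 8 is thus near the share over all features. Above 0 were 6 of 8 in treated hindlimb (median 0.34), 5 of 8 in treated diaphragm (0.08), 5 of 8 in untreated hindlimb (0.21) and 5 of 8 in untreated diaphragm (0.38). Of all features tested, 58.3%, 50.8%, 63.2% and 67.5% were above 0 in the same order. Against the untreated table, Il1b, an inflammatory cytokine, was lower in treated mdx diaphragm (-1.75 ± 0.34, adjusted p 0.0122), where 0.629% of 636 genes passed. In BL10 hindlimb Csf1, the growth factor of macrophages, was lower (-1.66 ± 0.41, 0.0221) and Lamp1, a lysosomal membrane protein, higher (0.98 ± 0.23, 0.0171). There 4.72% of 636 genes passed and 71.5% were above 0, with a median of 0.25. The untreated BL10 hindlimb arrays of 3 and 12 weeks had 225 and 128 values at or below 0. The treated group holds the array whose channels name mdx. These calls were not tested without those arrays. The median of the 8 on an array ran from -0.22 to 1.41 in treated mdx hindlimb and from -0.09 to 0.41 in treated BL10 hindlimb.

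Markers of other cells were measured unevenly. Of 11 neutrophil, 14 lymphocyte and 6 red blood cell genes none had a probe of that name. Of 17 fibroblast and matrix genes 6 had, Col1a2, Col5a1, Fmod, Bgn, Postn and Lox, and 3 of 6 passed over both treated tissues, where 1.47% of all tested did: Postn (1.16 ± 0.23, adjusted p 0.0313), Lox (1.09 ± 0.24, 0.0474) and Bgn (0.76 ± 0.16, 0.0409), all proteins of the extracellular matrix or its crosslinking. Of 16 arrays left out in turn, Postn lost its call without 9, Lox without 14 and Bgn without 13, with adjusted p up to 0.0930, 0.134 and 0.133, and 0 of the 3 passed without the array whose channels name mdx. The median of the 6 on an array was 1.03 to 1.73 in treated mdx hindlimb and 0.34 to 0.98 in BL10. In treated diaphragm it was 0.55 to 0.86 in mdx and -0.20 to 0.49 in BL10. Within each treated tissue it was thus higher in mdx, as were Lyz2 and C1qb. The groups were not ordered alike: in treated BL10 hindlimb the mean log2 ratios of Lyz2 and C1qb were -0.65 and -0.13. Over both treated tissues 5 of these 6 genes were higher in mdx, and in treated diaphragm 4 of 6. The part of these 6 genes in the Lyz2 and C1qb differences was not tested. Against the untreated table, Fmod, Col1a2 and Bgn were higher in treated mdx hindlimb (1.49, 1.31 and 1.05, adjusted p 0.0133, 0.0133 and 0.0171). There 3.46% of 636 genes passed. In treated BL10 hindlimb Fmod and Col1a2 were higher (1.77 and 1.00, adjusted p 0.00268 and 0.0456), where 4.72% passed. The endothelial list had 1 of 7 genes, Pecam1, at -1.43 in treated hindlimb without passing, and the adipocyte list 1 of 6, Scd1, at -0.02. Of 24 genes of skeletal muscle fibres, which mark the labelled tissues, 18 were measured and 0 passed in a strain comparison, where at most 1.47% of all tested did. Their median was 0.10 in treated hindlimb and -0.03 in treated diaphragm.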

How the data were processed

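Total RNA of muscle was measured on 2-colour arrays, and groups were taken from the labels. The deposited value was taken as a linear channel ratio because column medians lie near 1. The sources used here name no scanner, background correction, normalisation or dye, so no source states scale, centring or direction. Column medians ran from 0.73 to 1.08 in the untreated table and from 0.94 to 1.22 in the L-arginine table. Precision is limited by how many arrays there are. Of the 1200 values of an array, 0 to 225 (untreated) and 2 to 36 (L-arginine) were at or below 0, had no log2 and became missing. The remaining deposited ratios were turned into log2 and averaged per gene over probes with 1 symbol. Unnamed probes and probes with several symbols were tested singly. Features with a value on 75% of the arrays were fitted with group and age as terms, all groups of a table sharing 1 spread, with lmFit and eBayes of limma (version 3.58.1, R 4.3.3), and p-values were adjusted by Benjamini-Hochberg with a threshold of 0.05. Features named in both tables were fitted together for treated against untreated. The fit was tested on simulated data with 100 features changed 2-fold and 100 changed 4-fold, out of 1019 treated or 1014 untreated features. In treated hindlimb it recovered 66% of 2-fold and 89% of 4-fold changes, and 3.73% of its calls were false. In untreated hindlimb it recovered 50% and 90%, and 4.76% of its calls were false. Recovery after the adjustment depends on how many features change. It may be lower in these data, where fewer features passed than were changed in the simulation.

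Alternatives were other scalings, filters and probe rules, values of 0 or below set to the lowest positive ratio, other age and variance settings, and each array left out. Genes named beside the 7 were those among the 20 most like their mean in both tables and members of the cell lists that passed the test. The members and lists were chosen with earlier results of these data known. Figures were drawn with Python 3.11.15 and matplotlib 3.10.9.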

Additional observations from a re-analysis of the deposited data

Results flagged for a closer look

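Within groups of 4 or 5 arrays, 5 of 52 gene and group pairs had an array far from the others by Dixon's criterion, which chance gives in about 1 in 20. Among untreated mdx arrays, the 12-week Sample 1 array stood highest for C1qb in diaphragm (log2 ratio 1.40, the others -0.06 to 0.14) and in hindlimb (0.97, the others -0.11 to 0.16), and for Cd53 in hindlimb (0.49, the others -0.06 to 0.07). In untreated BL10 diaphragm, the 5-week array stood highest for Ccl6 (1.10, the others -0.17 to 0.01) and the 3-week array lowest for Gpnmb (-1.16, the others -0.04 to 0.16).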

How the results depend on the processing

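Counts are of the 7 macrophage genes called by limma. In treated hindlimb, where 1 was called, quantile normalisation, array scaling and leaving out the 12-week arrays called 0, removing the print-order trend and requiring a value on every array called 2, and each probe alone and the median of probes called 3. Leaving out each array in turn gave 0 to 2. Over both treated tissues, where 2 were called, quantile normalisation, array scaling and no 12-week arrays gave 0, eBayes with trend and robust gave 1, each probe alone 3 (Lyz2, C1qb and Gpnmb), and leaving out each array 1 to 2. Removing the print-order trend there also gave 2, but Lyz2 and Cd68 in place of Lyz2 and C1qb. In the table comparison of mdx diaphragm, where 0 were called, quantile normalisation and array scaling gave 2, and leaving out each array 0 to 1. Without both Sample 1 arrays, an alternative chosen after seeing the data, 1 was called in mdx diaphragm and 1 in mdx hindlimb (0 with them). The untreated strain comparisons called 0 under all their 34, 34 and 33 alternatives. A replicate block for the sample number, possible only for the tissue comparison in untreated mdx, called 0 as well (Lyz2 0.21, adjusted p 0.995). No called value changed sign. All features called in treated hindlimb ranged from 0 to 21 (4 as reported), and over both treated tissues from 1 to 23 (15 as reported). The cause of these shifts was not tested. Each probe alone could not be fitted across the tables, and age tests could not be fitted without the 12-week arrays. With 4 or 5 arrays per group and 1 array per age, strain by age rests on few arrays.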
